A study of Rattus norvegicus with 6 samples.

Results

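Experiment 3 of this series consists of 2 of the 6 arrays, 1 of neurons with control shRNA and 1 of neurons with Ncoa3 shRNA. They were set against the 4 arrays of experiments 1 and 2. Each array read the RNA of cultured neurons from the hippocampi of E18 rat embryos, grown with 10 µM 5-fluorodeoxyuridine (FUDR), infected with adeno-associated virus after 4 days in vitro and harvested after 14 days in vitro. The virus was given at 1800000 IFU per ml and carried either a control shRNA or an shRNA against Ncoa3, a nuclear receptor coactivator, so every array comes from cells that had received FUDR, virus and an shRNA. Each group holds 3 arrays, numbered 1 to 3 in their titles, and the design text calls them biological replicates. Same-numbered arrays of the 2 groups were taken as 1 experiment. FUDR blocks DNA synthesis and is used to hold back dividing non-neuronal cells in such cultures.

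The 2 arrays were chosen from these data: an earlier look at the principal components had placed them apart from the other 4. The differences of experiment 3 below are therefore a description with no test, and they set 1 experiment against 2. After each group's mean was taken away, the first component held 78.4% of the variance, with loadings of -0.26, -0.32 and 0.58 for experiments 1, 2 and 3 with control shRNA and -0.32, -0.25 and 0.57 with Ncoa3 shRNA. The difference between experiments 1 and 2 is printed beside that of experiment 3 for scale. The choice also placed experiments 1 and 2 together, so their smaller difference supports nothing about experiment 3.

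Cultured hippocampal neurons form synapses and fire spontaneously, and transcripts such as Arc, Egr1 and Ptgs2 follow that firing. Astrocytes that escape the antimitotic take up glutamate and carry genes such as Aqp4, Aldoc and Gfap. Glycolysis genes such as Slc2a1 and Slc16a3 move glucose in and lactate out of cells.

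Signals are given on the log2 scale after a constant was added to each array so that the 3 arrays of a group had the same median gene, called the aligned signal. The deposited medians of the genes were 8.06, 8.06 and 7.96 in experiments 1, 2 and 3 with control shRNA and 7.78, 7.76 and 7.71 with Ncoa3 shRNA. The quartiles lay 3.29, 3.31 and 3.01 apart with control shRNA and 3.35, 3.31 and 3.07 apart with Ncoa3 shRNA, so it was narrower on both arrays of experiment 3. Within a group, many probe sets hold identical deposited values on different arrays: 38.1% between experiments 1 and 2 with control shRNA and 36.7% with Ncoa3 shRNA, against 23.7% to 25.3% of pairs that include experiment 3. Where all 3 arrays of a group share a value, the alignment puts experiment 3 above the others' mean by 0.10 (control shRNA) and 0.06 (Ncoa3 shRNA). These are also the medians of the difference over all 18166 genes. In the deposited values both medians were 0. Of the 5654 genes with 3 different deposited values in each group, 325 (5.75%) were higher and 156 (2.76%) lower in experiment 3 by the rule given below.

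A gene was counted as higher, or lower, where array 3 lay outside both other arrays of its group and at least 1.5-fold from their mean in both groups. By that rule 425 of 18166 genes (2.34%) were higher and 168 (0.925%) were lower. The same rule in 1 group alone counted 764 higher and 390 lower genes with control shRNA, and 765 and 314 with Ncoa3 shRNA, so many genes passed under 1 shRNA and not under the other. Between experiments 1 and 2 only 33 genes (0.182%) were at least 1.5-fold apart in the same direction in both groups, 14 of them higher and 19 lower in experiment 2. Of the genes counted, 418 of the 425 and 164 of the 168 also differed by more than experiments 1 and 2 did from each other. None was 1.5-fold higher under one shRNA and 1.5-fold lower under the other (0 genes).

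The balance between higher and lower genes depended on brightness and scaling. Genes counted as higher made up 71.7% of those counted on aligned signals, against 51.6% on the deposited values, 51.1% after quantile normalization within each group and 50.6% after quantile normalization of all 6 arrays. Brightness is a gene's mean signal over all 6 arrays, experiment 3 included. A rise or fall in experiment 3 can thus move a gene across the median gene. Among the 9083 genes brighter than the median gene, 147 (1.62%) were higher and 142 (1.56%) were lower on aligned signals. On the deposited values those counts were 94 and 246, and after quantile normalization of all 6 arrays 125 and 199. The standard deviation over genes of the difference came to 0.304 (control shRNA) and 0.302 (Ncoa3 shRNA), against 0.131 and 0.145 for experiment 2 minus experiment 1. Across genes, which are not independent replicates and which share the arrays, the differences under the 2 shRNAs correlated at r = 0.80 for experiment 3 and at r = 0.32 for experiment 2 minus experiment 1. The choice of the arrays used the first of these.

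**Figure D1:**
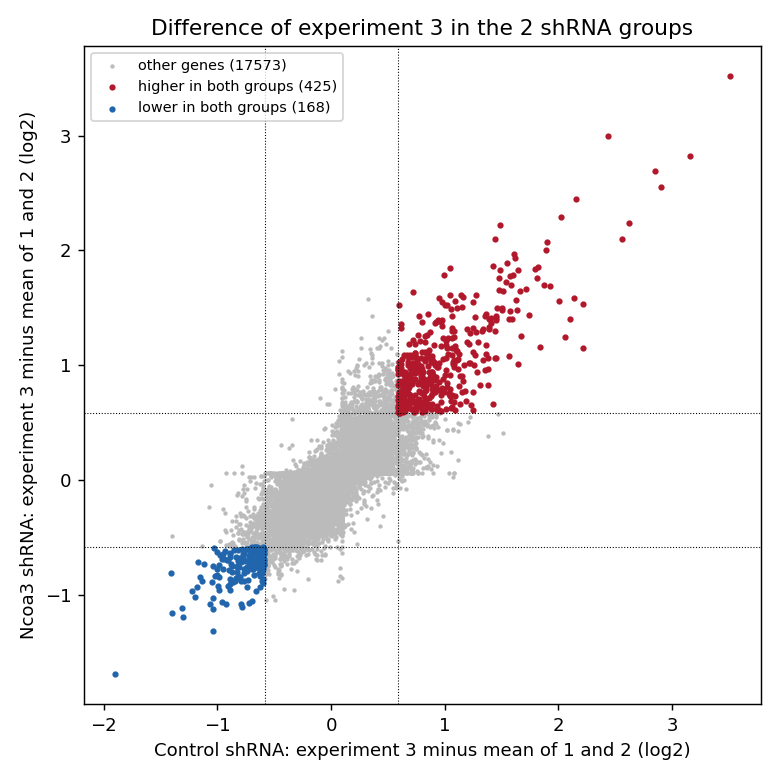
Difference of experiment 3 from the mean of experiments 1 and 2 (log2, aligned signals) with control shRNA on the x axis and Ncoa3 shRNA on the y axis, 1 point per gene; dotted lines mark 1.5-fold. The 425 genes counted as higher and the 168 counted as lower lie along the diagonal, and no gene passes 1.5-fold in opposite directions.

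The bright genes furthest above the other experiments were mostly members of multigene families or had no described role. Some, 4930488N24Rikl and Travl2 among them, lay below the median gene's 7.89 in experiments 1 and 2 and were bright only through experiment 3. 4930488N24Rikl, a gene with no role given here, read 6.87, 6.97 and 10.43 with control shRNA and 6.75, 6.91 and 10.35 with Ncoa3 shRNA in the order of experiments 1, 2 and 3, as in all lists of values that follow. Both arrays of experiment 3 stood above the rest of their group, by 11.4-fold and 11.5-fold. Travl2, a T cell receptor alpha variable segment, read 7.25, 7.19 and 10.38 with control shRNA and 7.09, 7.05 and 9.90 with Ncoa3 shRNA, which is 8.93-fold and 7.08-fold. Or8h7b, an olfactory receptor gene, read 11.69, 10.22 and 13.80 with control shRNA and 11.37, 10.76 and 13.75 with Ncoa3 shRNA. Here experiments 1 and 2 also differed from each other, by -1.46 and -0.60, and, as the rule requires, neither reached experiment 3. Pilrb2l1, a paired immunoglobulin-like receptor gene, read 7.64, 7.63 and 10.07 with control shRNA and 6.96, 7.64 and 10.29 with Ncoa3 shRNA.

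The same rule named 3 copies related to the scaffold gene Dlg5 (Dlg5l14, Dlg5l16 and Dlg5l15), the olfactory receptor gene Or4f61b, the keratin-associated protein gene Krtap10l2, the nidogen pseudogene Nid2-ps16, the microRNA locus Mir761, and LOC688340, LOC100364561 and LOC691414. Their smaller difference ran from 1.204 for Nid2-ps16 to 2.24 for Dlg5l14. Genes of multigene families can have near-identical copies between which the probes may not tell. That was not tested for these genes, so which copy gave the signal is uncertain. Last of the 15 was Cdh12, a cadherin of neurons, which read 9.45, 8.38 and 10.11 with control shRNA and 9.32, 8.06 and 10.00 with Ncoa3 shRNA. Experiment 2 was the lowest in both groups, and experiments 1 and 2 were 1.07 and 1.26 apart, near the 1.196 and 1.31 by which experiment 3 exceeded their mean.

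Among the next 15 by the same order, taken up after their values were seen, were genes with known roles in membrane traffic and metabolism. Sec23b, a subunit of the coat of vesicles leaving the endoplasmic reticulum, was 2.10-fold and 2.50-fold higher. Chm, an escort protein of Rab GTPases, read 9.63, 9.16 and 10.44 with control shRNA and 8.98, 8.38 and 10.29 with Ncoa3 shRNA. Rab9b, a GTPase of late endosomes, read 11.72, 11.57 and 12.77 with control shRNA and 11.92, 11.34 and 12.69 with Ncoa3 shRNA. For Chm the lowest array of each group was that of experiment 2. Elovl6, a fatty acid elongase, was 2.01-fold and 2.31-fold higher, and Car12, a carbonic anhydrase of the cell surface, 2.11-fold and 2.02-fold. Ranbp2 of the nuclear pore, the phosphatase Ptpn4 and Zdbf2, an imprinted gene, were 2.15-fold, 2.09-fold and 2.13-fold higher with control shRNA and 2.82-fold, 2.21-fold and 2.95-fold with Ncoa3 shRNA.

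In these last 3 genes, as in Cdh12 and Chm, experiment 1 lay between experiments 2 and 3. Of the 147 bright genes higher in experiment 3, 81 were higher in experiment 1 than in experiment 2 in both groups, and so were 77 of the 142 bright genes lower in experiment 3. That order held for 24.4% of all bright genes, a share that is not a like background. With Ncoa3 shRNA, genes with equal deposited values in experiments 1 and 2 cannot show it, as the alignment puts experiment 2 slightly higher.

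**Figure D2:**
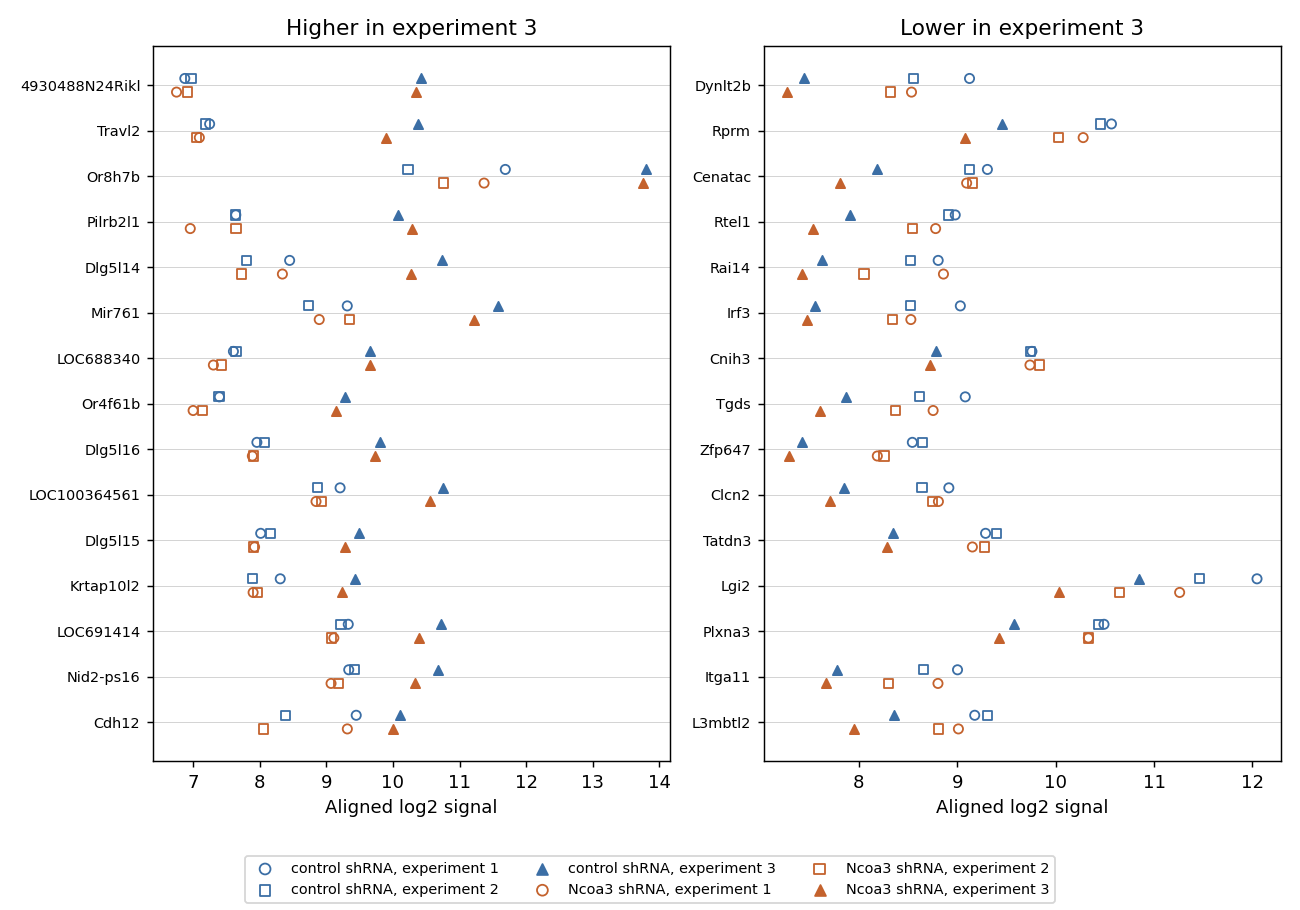
Aligned log2 signal (x axis) of the 15 higher and the 15 lower bright genes named by rule (y axis), 1 symbol per array; filled triangles are experiment 3, open circles and squares experiments 1 and 2. In each row the triangles lie outside the other arrays of their colour, as the rule requires, and the 4930488N24Rikl triangles at 10.43 and 10.35 lie furthest from the rest.

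The bright genes named as lower in experiment 3 differed by less, and most of them have a described role. Brightness includes experiment 3, so the filter lets in dim genes that rise and drops genes that fall. The higher and lower sets are therefore not a like comparison. Dynlt2b, a light chain of dynein, read 9.12, 8.55 and 7.44 with control shRNA and 8.53, 8.32 and 7.27 with Ncoa3 shRNA, 2.64-fold and 2.23-fold lower. Rprm, which encodes reprimo, a target of p53 linked to cell cycle arrest, read 10.57, 10.46 and 9.45 with control shRNA and 10.28, 10.03 and 9.08 with Ncoa3 shRNA, 2.09-fold and 2.11-fold lower. As the rule requires, the array of experiment 3 was the lowest of its group for both genes. None of the 15 measured genes of the p53 response list, which does not hold Rprm, passed the rule.

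Several of the lower genes belong to neurons. Cnih3, a cornichon that travels with AMPA receptors, read 9.76, 9.74 and 8.79 with control shRNA and 9.74, 9.83 and 8.72 with Ncoa3 shRNA. Experiments 1 and 2 differed by -0.02 and 0.09, and experiment 3 differed from their mean by -0.96 and -1.06. Lgi2, a secreted protein of the leucine-rich LGI family, read 12.05, 11.46 and 10.85 with control shRNA and 11.26, 10.65 and 10.03 with Ncoa3 shRNA, with experiment 2 between the others in both groups. Plxna3, a semaphorin receptor, read 10.49, 10.43 and 9.57 with control shRNA and 10.33, 10.34 and 9.43 with Ncoa3 shRNA. Clcn2, a chloride channel, was 1.90-fold and 2.11-fold lower.

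Nuclear proteins made up others of the 15: Rtel1, a helicase of telomeres, Cenatac, a factor of the minor spliceosome, Irf3, a transcription factor of the interferon response, L3mbtl2, a chromatin repressor, and Zfp647, a zinc finger gene. They were 1.85-fold to 2.34-fold lower with control shRNA and 1.90-fold to 2.50-fold lower with Ncoa3 shRNA. The remaining 4 were Rai14, which binds actin, Tgds, Tatdn3 and the integrin Itga11. Of the next 15, taken up after their values were seen, Pabpn1, which binds the poly(A) tail in the nucleus, read 11.34, 11.57 and 10.33 with control shRNA and 10.95, 10.72 and 9.95 with Ncoa3 shRNA. Hnrnpm, a splicing factor, read 10.25, 10.81 and 9.12 with control shRNA and 9.69, 9.51 and 8.79 with Ncoa3 shRNA. Socs2, which dampens cytokine and growth hormone signals, was 2.03-fold and 1.79-fold lower.

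The largest drop lay among genes just dimmer than the median gene, in Vegfd, a ligand of the receptor that drives lymphatic vessel growth, noted after its values were seen. It read 8.77, 8.24 and 6.61 with control shRNA and 8.80, 8.13 and 6.77 with Ncoa3 shRNA, 3.74-fold and 3.23-fold lower. Experiment 2 lay below experiment 1 in both groups, by 0.53 and 0.68, and experiment 3 below both. At the edge of the rule, bright genes just inside it were Phip (0.59), Kcnt2 (0.59) and, on the lower side, Lias (-0.59) and Adcy8 (-0.59), given as the smaller of the groups' differences. Just outside were Tfrc (0.58), Gcc2 (0.58), Cables1 (-0.58) and Pdpr (-0.58).

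Of 37 lists of cell type markers and pathways, 582 genes were measured, of which 13 (2.23%) were higher and 4 (0.687%) lower. Over all genes those shares were 2.34% and 0.925%, and over bright genes 1.62% and 1.56%. The lists held more bright genes than the table does, and the median difference over all bright genes came to -0.02 (control shRNA) and -0.06 (Ncoa3 shRNA), against 0.10 and 0.06 over all genes. List members given below that do not pass the rule were in part picked as references after their values were seen. For list members above or below the median of all genes in both groups, the same share over all genes was not counted.

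**Figure D3:**
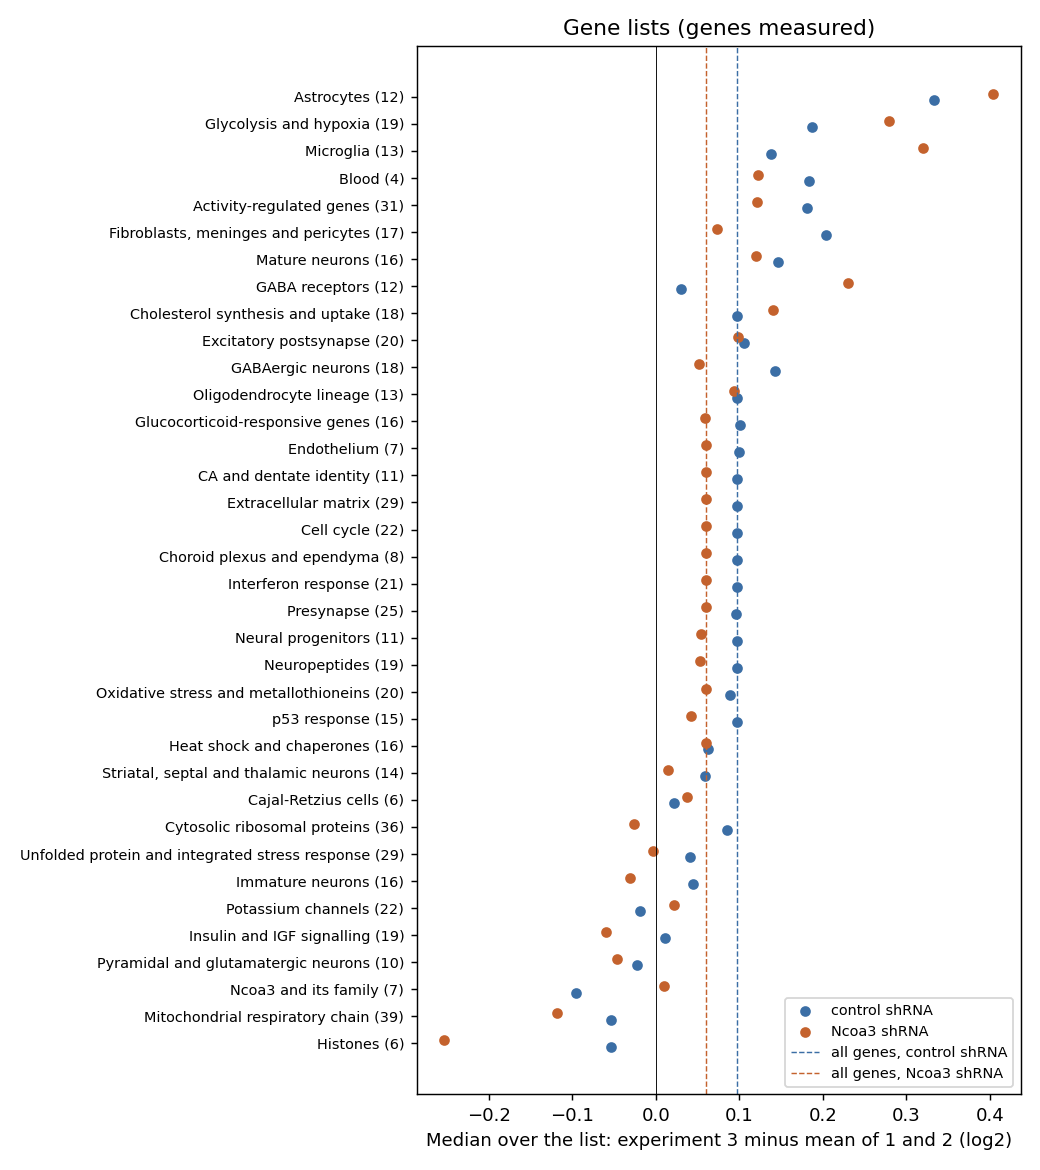
Median over each list of the difference of experiment 3 from the mean of experiments 1 and 2 (log2, x axis) with control shRNA (blue) and Ncoa3 shRNA (orange); the number of genes measured is in brackets and dashed lines mark the medians over all genes, 0.10 and 0.06. Astrocyte markers lie furthest to the right in both groups, at 0.33 and 0.40.

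Astrocyte markers had the highest median difference of the lists with 3 or more measured genes, 0.33 with control shRNA and 0.40 with Ncoa3 shRNA. Of 12 measured, 10 lay above the median of all genes in both groups and 2 passed the rule. Aldoc, an aldolase of astrocytes, read 11.93, 12.46 and 13.02 with control shRNA and 11.86, 12.56 and 12.90 with Ncoa3 shRNA, so experiment 1 was lowest and experiment 2 lay between. Aqp4, the water channel of astrocyte endfeet, read 8.99, 9.13 and 9.73 with control shRNA and 8.67, 8.91 and 9.66 with Ncoa3 shRNA. Slc1a2, which takes up glutamate, read 11.28, 11.15 and 11.65 with control shRNA and 10.74, 10.62 and 11.25 with Ncoa3 shRNA, above the other arrays of its group without passing 1.5-fold. In bulk RNA, more cells of a type and more RNA per cell cannot be told apart.

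Summed over the 12 markers, the astrocyte signal came to 13.87, 14.06 and 14.45 with control shRNA and 13.62, 13.95 and 14.27 with Ncoa3 shRNA, so the arrays of experiment 3 were highest in each group. The list's median stayed above that of all genes under each scaling tried, by 0.24 and 0.34 on the deposited values and by 0.39 and 0.51 after quantile normalization of all 6 arrays. Without experiment 1 it was 0.16 and 0.22 above. Aqp4 did not pass on the deposited values (0.57 and 0.81), and Aldoc did not pass without experiment 1 (0.56 and 0.34). The part of the astrocyte signal in the differences of other genes was not tested.

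None of the 13 microglial markers was brighter than the median gene, and 1 passed the rule on aligned signals alone, not on the deposited values or after either quantile normalization: Csf1r, the receptor for the growth factor of microglia, read 6.40, 6.40 and 6.99 with control shRNA and 6.24, 6.25 and 6.94 with Ncoa3 shRNA. Their median came to 0.14 (control shRNA) and 0.32 (Ncoa3 shRNA), and after quantile normalization of all 6 arrays it was -0.09 with control shRNA, just under that of all genes. Cx3cr1 differed by 0.57 and 0.83 and Tyrobp by 0.73 and 0.45, each 1.5-fold in 1 group. Gpr17, of oligodendrocyte precursors, read 6.34, 6.24 and 7.19 with control shRNA and 6.01, 6.11 and 6.85 with Ncoa3 shRNA, the only one of 13 genes of that lineage to pass, and it did not pass after quantile normalization (0.65 and 0.57 over all 6 arrays). Lum, a matrix proteoglycan of fibroblasts, read 7.76, 7.76 and 8.66 with control shRNA and 8.22, 7.69 and 9.13 with Ncoa3 shRNA, the only one of 17 markers of fibroblasts, meninges and pericytes to pass. None of the markers of endothelium (7 measured), choroid plexus and ependyma (8), neural progenitors (11) or blood (4), and none of 22 cell cycle genes, passed.

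No neuronal marker of the pyramidal, immature or mature lists passed the rule. The vesicular glutamate transporter gene Slc17a7 read 12.84, 12.80 and 12.90 with control shRNA and 12.77, 12.79 and 12.83 with Ncoa3 shRNA, and none of 10 pyramidal markers passed the rule. Their median difference was -0.02 and -0.05, below that of all genes on aligned signals and above it, by 0.04 in both groups, after quantile normalization of all 6 arrays. Gad1, which makes GABA, read 11.86, 11.68 and 11.68 with control shRNA and 11.74, 11.49 and 11.54 with Ncoa3 shRNA. All 10 pyramidal markers were brighter than the median gene, and 7 of them lay below the median of all genes in both groups on aligned signals. Of 16 genes of immature neurons, all bright, 12 lay below it in both groups, with medians of 0.04 and -0.03. Over all bright genes the medians were -0.02 and -0.06, near the pyramidal medians and below the immature ones. The 16 genes of mature neurons had medians of 0.15 and 0.12, with 8 above and 7 below in both groups. After quantile normalization of all 6 arrays the mature list lay 0.16 and 0.17 above the median of all genes and the immature list -0.01 and 0.01 from it.

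Within the GABAergic list, the peptide gene Npy and the secreted glycoprotein gene Reln went opposite ways. Npy read 11.42, 11.37 and 12.14 with control shRNA and 11.20, 11.64 and 12.02 with Ncoa3 shRNA. It no longer passed on the deposited values (0.65 and 0.55), after quantile normalization of all 6 arrays (0.71 and 0.58) or without experiment 1 (0.77 and 0.39). Reln, which also marks Cajal-Retzius cells, read 11.26, 11.06 and 10.44 with control shRNA and 11.05, 10.81 and 10.21 with Ncoa3 shRNA. Both passed on aligned signals, and the rule itself requires no overlap between experiment 3 and the rest of the group. Sst, of another interneuron class, did not pass and differed by 0.13 and 0.00. Among 19 neuropeptide genes, Crh, corticotropin-releasing hormone, was the one that passed on the lower side, with 7.75, 6.98 and 6.58 with control shRNA and 7.65, 7.17 and 6.30 with Ncoa3 shRNA. Without experiment 1 it did not pass (-0.39 and -0.87).

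Synaptic and channel genes passed in 2 instances. Gabrb2, a subunit of the GABA-A receptor, read 11.11, 10.61 and 11.45 with control shRNA and 10.75, 10.00 and 11.34 with Ncoa3 shRNA, 1 of 12 GABA receptor genes. It did not pass on the deposited values (0.49 and 0.90), after either quantile normalization or without experiment 2. Homer2, a scaffold of the excitatory postsynapse, read 10.79, 10.65 and 10.01 with control shRNA and 10.43, 9.96 and 9.60 with Ncoa3 shRNA, 1 of 20 genes of its list. It did not pass after quantile normalization of all 6 arrays (-0.72 and -0.55) or without experiment 1. None of 25 presynaptic genes and none of 22 potassium channel genes passed.

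Some activity-regulated genes were higher in experiment 3 while Fos was not. Ptgs2, the inducible cyclooxygenase that makes prostaglandins, read 8.90, 9.47 and 10.22 with control shRNA and 8.53, 9.05 and 10.02 with Ncoa3 shRNA, 2.04-fold and 2.36-fold higher. Nptx2, a secreted pentraxin that gathers AMPA receptors, read 10.35, 10.70 and 11.34 with control shRNA and 10.24, 10.72 and 11.36 with Ncoa3 shRNA. These 2 of 31 measured genes passed. In both, as in Aldoc, experiment 2 lay between experiments 1 and 3.

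Arc, which acts in receptor removal at synapses, read 8.83, 9.11 and 9.45 with control shRNA and 8.48, 9.09 and 9.42 with Ncoa3 shRNA, short of 1.5-fold with control shRNA. The transcription factors Egr2, Egr3 and Egr1 differed by 0.49, 0.48 and 0.42 with control shRNA and by 0.62, 0.47 and 0.46 with Ncoa3 shRNA. Fos differed by -0.08 and -0.07 and Npas4 by -0.01 and 0.07. The median over the list was 0.18 and 0.12, which is 0.08 and 0.06 above that of all genes, and 0.19 and 0.20 above it after quantile normalization of all 6 arrays. Without experiment 2, 5 of the 31 passed in place of 2.

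Some genes of glycolysis and of the hypoxia response were higher, and experiment 1 was the lowest for both that passed. Slc16a3, which exports lactate, read 7.80, 7.93 and 8.88 with control shRNA and 7.71, 8.39 and 9.23 with Ncoa3 shRNA. Slc2a1, the glucose transporter of the blood-brain barrier and of glia, read 9.76, 10.11 and 10.70 with control shRNA and 9.72, 10.05 and 10.59 with Ncoa3 shRNA. These 2 of 19 passed, and 13 lay above the median of all genes in both groups. Without experiment 1, Slc2a1 did not pass (0.59 and 0.53). Pdk1, which restrains entry of pyruvate into the mitochondrion, differed by 0.29 and 0.43, and Slc2a3, the transporter of neurons, by -0.01 and 0.00.

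The median over that list was 0.19 and 0.28, and the difference of experiment 2 from experiment 1 was nearly as large, 0.18 and 0.24. Without experiment 1 the list's median equalled that of all genes with control shRNA and lay 0.14 above it with Ncoa3 shRNA. The 39 genes of the mitochondrial respiratory chain, all bright, had medians of -0.05 and -0.12, against -0.02 and -0.06 over all bright genes. Of these 39 genes, 29 lay below the median of all genes in both groups and none passed the rule. After quantile normalization of all 6 arrays they were 0.04 and 0.03 below that of all genes, and 2 of them passed on the lower side.

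**Figure D4:**
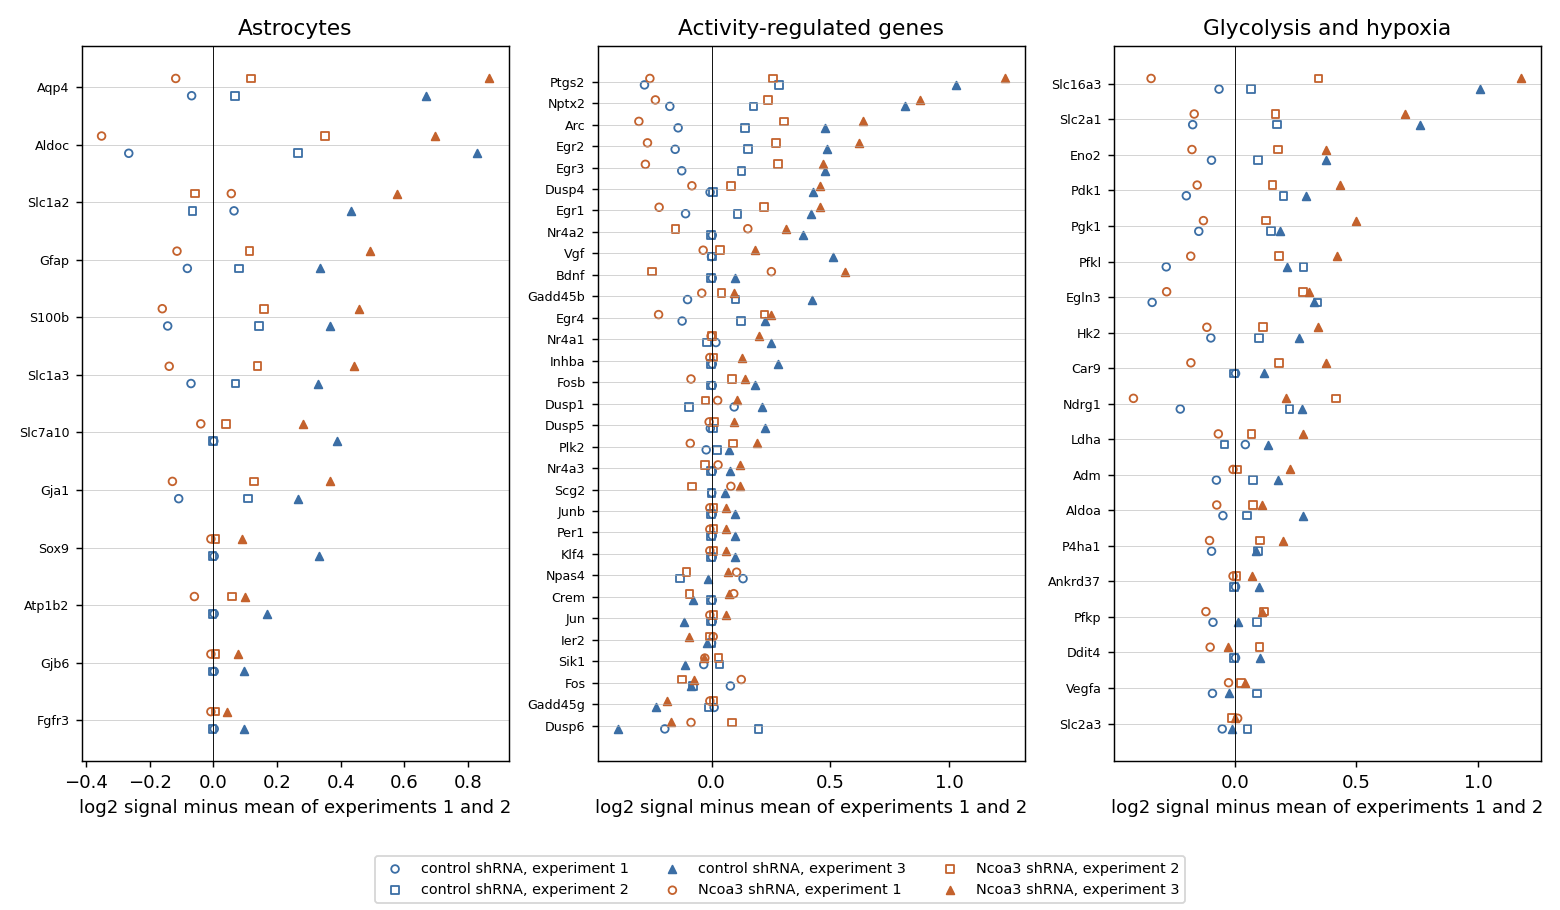
Log2 signal of each measured astrocyte, activity-regulated, and glycolysis and hypoxia gene minus the mean of experiments 1 and 2 of its group (x axis), 1 symbol per array; triangles are experiment 3. Triangles lie right of the line for most astrocyte genes, and at -0.08 and -0.07 for Fos.

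Of the stress lists, 2 held a gene that passed. Slc7a11, the cystine exchanger that feeds glutathione synthesis, read 8.48, 8.30 and 9.18 with control shRNA and 7.91, 7.52 and 8.78 with Ncoa3 shRNA, the only one of 29 genes of the unfolded protein and integrated stress response to pass. Mt1, a metallothionein that binds zinc and copper, was the only one of 20 genes of the oxidative stress and metallothionein list to pass. None of 16 heat shock, 15 p53, 21 interferon or 16 glucocorticoid-responsive genes passed. In the last list Tsc22d3, a mediator of glucocorticoid action, differed by -0.52 and -0.72, and Klf9, another target of the hormone, by 0.42 and 0.49. Of 19 insulin and IGF genes, Igfbp3, which binds IGF, passed on the lower side, with 10.11, 10.03 and 9.35 with control shRNA and 9.44, 9.41 and 8.66 with Ncoa3 shRNA.

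Mt1 read 10.74, 10.72 and 12.10 with control shRNA and 10.95, 11.51 and 12.33 with Ncoa3 shRNA, 2.58-fold and 2.14-fold higher in experiment 3. Metallothionein genes respond to metals through the factor Mtf1, which binds metal response elements in their promoters. The 250 bases before the Mt1 start (RefSeq, GRCr8 chr19:10832976-10833225, minus strand) are shown because they hold 6 cores of that element, TGCACNC or TGCGCNC on either strand, written in capitals, a motif picked after the values were seen.

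Mt1 promoter: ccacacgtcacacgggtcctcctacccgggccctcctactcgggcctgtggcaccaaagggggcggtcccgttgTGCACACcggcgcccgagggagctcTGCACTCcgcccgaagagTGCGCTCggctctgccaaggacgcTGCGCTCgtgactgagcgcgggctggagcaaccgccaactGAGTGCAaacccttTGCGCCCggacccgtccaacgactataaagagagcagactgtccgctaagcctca

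At least 1 such core lies in 24.2% of 33469 promoters of 300 bases, and 5 or more in 0.123% (41 promoters). The promoters of Mt2A and Mt3, which also hold the core, have 4 and 3, and that of Mt1f has 0. Mt1f read 9.61, 9.84 and 10.75 with control shRNA and 10.07, 10.65 and 11.16 with Ncoa3 shRNA, and passed, though not without experiment 1 (0.91 and 0.52). Mt2A read 12.84, 12.54 and 13.08 with control shRNA and 12.56, 12.68 and 12.77 with Ncoa3 shRNA, and did not. Probes may not tell the metallothionein copies apart.

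The promoter of Ptgs2, shown as that of the activity-regulated gene with the largest difference (250 bases before the start, RefSeq, GRCr8 chr13:64713813-64714062, plus strand), holds 1 E-box, CACGTG, in capitals. That motif lies in 6.42% of promoters, and no CRE (TGACGTCA) or AP-1 site (TGACTCA) was found in the 300 bases searched on both strands. The Ptgs2 promoter also holds 1 heat shock element (GAANNTTC), left unmarked, a motif found in 8.59% of promoters.

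Ptgs2 promoter: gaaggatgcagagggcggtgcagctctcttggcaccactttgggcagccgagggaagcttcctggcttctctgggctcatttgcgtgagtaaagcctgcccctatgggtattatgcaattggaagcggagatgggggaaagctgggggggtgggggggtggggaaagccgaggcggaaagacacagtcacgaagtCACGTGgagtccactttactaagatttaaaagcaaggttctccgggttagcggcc

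Several multigene families held many of the genes counted as higher. They were singled out after their values were seen. Of 1117 olfactory receptor genes, which belong to the nose and had a median signal of 4.92, 132 (11.8%) were higher and 0 lower. After quantile normalization of all 6 arrays, 75 were higher and 2 lower, and the family's median difference fell from 0.21 and 0.16 to 0.03 and 0.03. Of 34 keratin-associated protein genes, which belong to hair, 9 (26.5%) were higher and none lower (0), and 7 after that normalization. Of 7 T cell receptor variable segments 6 were higher, and 3 after it. Vomeronasal receptor genes, with a median signal of 4.21, had 4 of 159 (2.52%). The array's table has 17599 further probe sets with no symbol, and among these 1716 (9.75%) were higher and 226 (1.28%) lower.

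**Figure D5:**
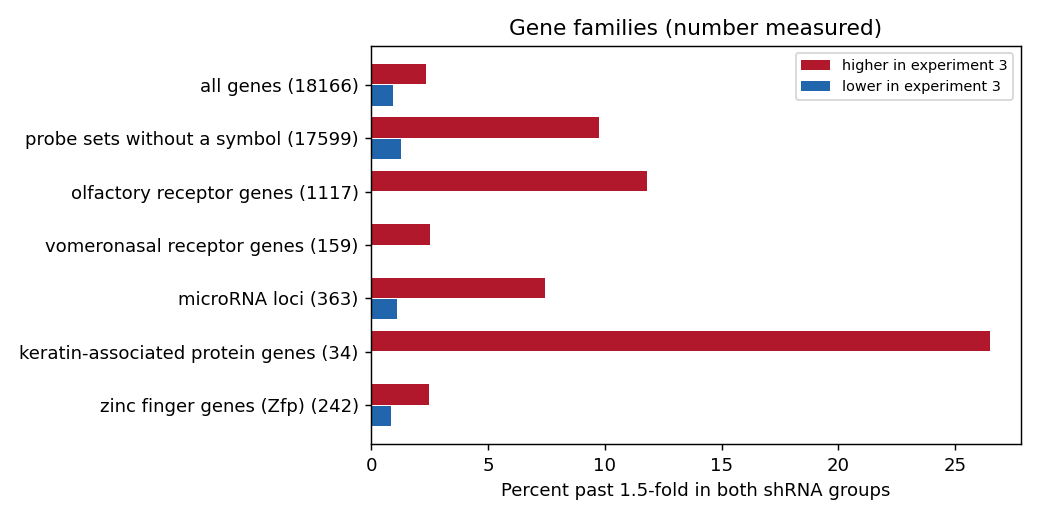
Share of genes (percent, x axis) counted as higher (red) or lower (blue) in experiment 3 in all genes, in probe sets without a symbol and in 5 gene families; the number measured is in brackets. Olfactory receptor genes (11.8%) and keratin-associated protein genes (26.5%) exceed the 2.34% of all genes on the higher side, with no gene on the lower side.

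MicroRNA loci passed the rule more often on the higher side than on the lower. MicroRNAs are short RNAs cut from hairpins that pair through their seed with messenger RNAs. Of 363 loci, 27 (7.44%) were higher and 4 (1.10%) lower, against 2.34% and 0.925% of all genes, so the lower share was near that of all genes. Their median signal was 5.57, and whether the probe sets read the hairpin, the mature RNA or a longer transcript was not tested. After quantile normalization of all 6 arrays the counts were 16 and 6. The mature sequences below (RefSeq, GRCr8), a single arm of each locus, are from loci that passed the rule and are linked on 3 chromosomes. Mir323 of chromosome 6, which also passed and was higher, is not among them. The seed, bases 2 to 8, is in capitals.

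rno-miR-23b-3p: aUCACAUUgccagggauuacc
rno-miR-24-3p: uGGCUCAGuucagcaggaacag
rno-miR-23a-3p: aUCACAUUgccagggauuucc
rno-miR-27a-3p: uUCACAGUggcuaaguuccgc
rno-miR-539-5p: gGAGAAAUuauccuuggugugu
rno-miR-544-3p: aUUCUGCAuuuuuagcaagcu
rno-miR-377-3p: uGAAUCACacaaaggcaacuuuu

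The hairpins of Mir24-1 (chr17:1818669-1818736) and Mir23b (chr17:1819386-1819482) lie next to each other on the minus strand, as do those of Mir27a (chr19:40859603-40859689) and Mir23a (chr19:40859769-40859843). MiR-23a-3p and miR-23b-3p share the seed UCACAUU. Mir24-1 read 6.56, 6.55 and 7.98 with control shRNA and 5.64, 5.89 and 7.63 with Ncoa3 shRNA. Mir27a read 5.70, 5.43 and 6.95 with control shRNA and 5.43, 5.75 and 6.90 with Ncoa3 shRNA. Mir23b differed by 0.63 and 0.78 and Mir23a by 0.63 and 0.94. These 4 loci were picked because they passed on aligned signals, and other loci near them are not given. On the deposited values and after either quantile normalization Mir24-1 and Mir27a passed and Mir23b and Mir23a did not (0.53 and 0.54 with control shRNA in the deposited values).

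A stretch of chromosome 6 held loci that were lower and 1 that was higher. Only loci that passed are given, and the others measured there were not counted. It is part of an imprinted domain in mammals that is rich in microRNAs expressed in neurons. Mir377 (chr6:134576456-134576527, plus strand) read 7.18, 6.67 and 5.62 with control shRNA and 7.08, 6.50 and 5.60 with Ncoa3 shRNA. Mir544 read 7.96, 7.93 and 6.75 with control shRNA and 7.70, 7.30 and 6.48 with Ncoa3 shRNA. Mir539 (chr6:134563598-134563673, plus strand) differed by -0.95 and -0.78. Mir323 (chr6:134546944-134547029, plus strand) was higher, by 0.68 and 0.75, so the direction was not shared along the stretch. Mir323 did not pass after quantile normalization of all 6 arrays (0.46 and 0.55). The fourth lower locus was Mir186, on chromosome 2, by -0.84 and -0.86, which did not pass without experiment 1 (-0.83 and -0.47).

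Of the 32 bright loci, 3 were higher and 1 was lower, where the shares over all bright genes were 1.62% and 1.56%. The lower one was Mir539, with a mean signal of 7.91, just above the median gene's 7.89. Mir761 read 9.31, 8.73 and 11.58 with control shRNA and 8.89, 9.35 and 11.22 with Ncoa3 shRNA. Mir214 read 8.12, 7.89 and 8.88 with control shRNA and 7.56, 7.54 and 8.61 with Ncoa3 shRNA. Mir200c, known from epithelia and dim here, read 5.94, 5.43 and 7.58 with control shRNA and 5.48, 5.20 and 7.34 with Ncoa3 shRNA.

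Ncoa3 itself was lower with its shRNA in every experiment, and the size of that difference was the smallest in experiment 3. Ncoa3 read 8.76, 8.84 and 8.43 with control shRNA and 7.40, 7.41 and 7.43 with Ncoa3 shRNA. Ncoa3 shRNA minus control was -1.36, -1.43 and -1.001, values that hold the offset between the separately processed groups and compare only between experiments. The control array of experiment 3 was the lowest of its group, while the Ncoa3 shRNA arrays lay within 0.03 of each other in aligned signal. Over all 6 arrays after quantile normalization, the Ncoa3 difference was -0.97 ± 0.14 (SE, limma, n = 3 arrays per group), adjusted p = 0.00747, and adjusted p = 0.00609 with the experiment as a block.

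The knockdown difference of experiment 3 was at least 1.5-fold away from the mean of the other experiments, and outside both, in 204 genes (1.12%), of which 104 were more positive and 100 more negative in experiment 3. Only 24 and 9 of these were brighter than the median gene. Among these bright genes, furthest on the positive side was Srsf5, a splicing factor, with differences of -0.45, -1.28 and 0.04. Tet1, which oxidises methylcytosine, had -0.48, -0.70 and 0.26, and Kif5b, a kinesin heavy chain, -1.15, -1.51 and -0.56. Zfp68 and the cadherin gene Cdh9 exceeded the other experiments by 0.80 and 0.75.

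On the negative side Rpl28l3, a copy of a ribosomal protein gene, had 0.10, 0.14 and -0.999, and Rfc4, a clamp loader of DNA replication, -0.34, 0.38 and -0.82. Chn3, Sbk1 and the histone gene H4c14 followed at -0.63, -0.63 and -0.62 from the mean of the others. Experiments 1 and 2 were themselves apart, by -0.83 for Srsf5 and 0.72 for Rfc4 (experiment 2 minus experiment 1).

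The genes counted in experiment 3 were tested for the knockdown, a contrast that is balanced over experiments. Of the 30 genes named by rule, 0 passed in limma without a block (0 also at an unadjusted p under 0.05), where 3548 of 18166 genes (19.5%) passed. The 30 are all bright, so that share is not a like background. In the fit of the 9083 bright genes alone 433 passed, and 0 of the 30. When the experiment was a block in the fit of all genes, 7147 genes (39.3%) passed, and 4 of the 30 did: Lgi2, Cnih3, 4930488N24Rikl and Dlg5l16. Lgi2 was lower with Ncoa3 shRNA, by -0.62 ± 0.04 (SE, adjusted p = 0.00369), in 3 of 3 experiments. Cnih3 was higher, by 0.27 ± 0.04 (SE, adjusted p = 0.0212), on the quantile-normalized signals of that fit. Its aligned signals, which keep the offset between the groups, were 9.76, 9.74 and 8.79 with control shRNA. With Ncoa3 shRNA they were 9.74, 9.83 and 8.72, so no rise was shared by all experiments on aligned signals. Whether the scaling between the groups gave the 0.27 was not tested.

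Of the 425 genes higher in experiment 3, 2 passed without the block and 151 (35.5%) with it, and of the 168 lower genes 0 and 39 (23.2%). The share of all genes with the block was 39.3%. The spread between experiments enters the error of the fit without the block, and these genes were chosen by that spread. Run and shRNA group cannot be told apart in these values.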

How the data were processed

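The series holds 6 Affymetrix arrays, 3 per shRNA group. The authors deposited 1 log2 signal per probe set and array. The submitters' processing notes name Affymetrix Expression Console as the tool. The settings for summarisation and normalization, the version and the build were not given in the sources used here. Among the table's columns, 0 belonged to other samples. Of 36685 probe sets, 18511 have 1 gene symbol in the platform annotation, 575 several and 17599 none. The brightest probe set stood for each of 291 genes with several, which left 18166 genes.

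Each array was shifted to its group's mean median gene, and array 3 minus the mean of arrays 1 and 2 was taken within each group with Python 3.11.15. The named genes are the 15 highest and 15 lowest bright genes by the smaller of both groups' differences, up to 3 of each list, the 5 furthest in knockdown size on each side, and Ncoa3. The arrays, members and lists were chosen with earlier results of these data known.

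The knockdown test used limma 3.58.1 under R 4.3.3 (lmFit, eBayes with a trend, two-sided, Benjamini-Hochberg over all genes, threshold 0.05) on quantile-normalized log2 signals, checked on simulated data. The titles give each array a number, and same-numbered arrays were taken as 1 experiment, which is the source of the block. The titles do not state that pairing. The arrays' choice used how the pairs deviate together, and experiment 2 minus experiment 1 correlated between the groups at r = 0.32 over genes. Deposited values, quantile normalization, brightness, the mean of probe sets and leaving out each replicate were the alternatives. With 3 arrays per group, their number limits the precision. Sequences are from RefSeq (GRCr8), matched by symbol, with the mature sequence found for 30 of 31 microRNA loci.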

Additional observations from a re-analysis of the deposited data

Results flagged for a closer look

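The 7 measured genes of the Ncoa family, the nuclear receptor coactivators, had a median difference of experiment 3 of -0.0949 (control shRNA) and 0.0101 (Ncoa3 shRNA). The list holds Ncoa3 itself, is given because the medians have opposite signs on aligned signals, and the difference between the groups was not tested. On the deposited values the medians were -0.19 and -0.05, and after quantile normalization of all 6 arrays -0.09 and -0.04, with the same sign in both groups. On aligned signals all 7, each brighter than the median gene, lay below the median of all genes in both groups. The medians over all bright genes were -0.02 (control shRNA) and -0.06 (Ncoa3 shRNA) there. After quantile normalization of all 6 arrays the list's median lay -0.01 (control shRNA) and 0.05 (Ncoa3 shRNA) from that of all genes.

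Probe sets without a gene symbol, which enter no comparison of genes, were higher in experiment 3 in 9.75% and lower in 1.28% of 17599, against 2.34% and 0.925% of genes. Between experiments 1 and 2, 126 of them (0.716%) were apart. Their median signal was 6.17.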

How the results depend on the processing

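No gene named among the 30 higher and 30 lower changed its direction under the alternatives run. Relative to all genes, the pyramidal list turned from -0.12 and -0.11 to 0.04 and 0.04 after quantile normalization of all 6 arrays, and the microglial list with control shRNA from 0.04 to -0.01. The balance of bright genes turned from 147 higher and 142 lower to 94 and 246 on the deposited values. The count of genes lower in experiment 3, 168 on aligned signals, was 290 on the deposited values, 266 after quantile normalization within each group and 269 after that of all 6 arrays, which hold 168, 159 and 160 of the same genes. The count of higher genes, 425, was 278 and 276 under the 2 quantile normalizations and 147 in bright genes only. Leaving out replicates gave 375 to 455 higher and 120 to 226 lower genes, 13 to 30 listed genes in place of 17, with the 30 reached without replicate 2, and 200 to 407 genes of differing knockdown size in place of 204, with the 407 reached without replicate 1. Of those genes, Dgkk lost its 1.5-fold difference without replicate 1 (-0.55). Of the 17 listed genes, 11 passed on the deposited values and under both quantile normalizations, and Npy, Aqp4, Csf1r, Gabrb2, Gpr17 and Homer2 did not.

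With the replicate block, 4 of the 30 genes named by rule passed for the knockdown in place of 0. Leaving out replicates gave 0 to 2, the 2 without replicate 3. Without replicate 2, limma passed 0 of 18166 genes, and without replicate 1 it passed 223, with 2 arrays per group.

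Dim signals limit the reading: 278 of the 425 higher genes lie below the median gene. Among the 5654 genes with 3 different deposited values in each group, the standard deviation of experiment 2 minus experiment 1 was 0.198 (control shRNA) and 0.213 (Ncoa3 shRNA). For experiment 3 minus the mean of experiments 1 and 2 it was 0.433 and 0.440 over the same genes.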
